A study of Mus musculus with 2 samples.

Results

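The enzymes and carriers of fatty acid activation and mitochondrial beta-oxidation were examined in newborn mouse heart as 39 genes of the 43346 in each deposited gene table. They were chosen by function, as the genes whose gene identifier carries a symbol of the pathway in the GENCODE mouse annotation, and all 39 were found. The series held 1 group of 2 biological replicates: hearts of strain B6NTac;B6NCrl/Lap at postnatal day 0, described as healthy and pooled from male and female pups. Replicate 1 was a pool of 15 mice, replicate 2 was a pool whose number the labels do not give, and both carried the same donor label. RNA longer than 200 nucleotides was depleted of ribosomal RNA and sequenced as stranded paired reads. With no contrasting tissue, age or treatment, the data address how high each enzyme was expressed, how family members compared, and how far separate isolates of the same tissue differed. No p-value was computed, and every difference given between the replicates compares 1 library with 1 library.

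Before it can be burned in a mitochondrion, a fatty acid is joined to coenzyme A by an acyl-CoA synthetase, passed to carnitine at the outer membrane, carried inward, and returned to coenzyme A. The acyl chain is then shortened in a repeated cycle of dehydrogenation, hydration, oxidation and thiolysis, and electrons leave through the electron-transferring flavoprotein. The adult heart draws most of its energy from this route, whereas the fetal heart relies more on glucose and lactate, and birth falls between these states.

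The libraries held 73615802 gene counts in replicate 2 and 69946215 in replicate 1, of which the 39 genes took 496431 and 366498. All 8 cardiomyocyte markers were detected, as the heart label implies, and summed to 12859 TPM in replicate 2 and 12683 TPM in replicate 1. TPM is an abundance per transcript length, scaled to the whole library. Markers of other cell types differed between the libraries. Smooth muscle markers summed to 654 TPM in replicate 2 and 325 TPM in replicate 1, and 5 urothelial markers to 82.8 and 5.41 TPM, where Upk2 and Krt5 had 0 counts in replicate 1. The 7 lymphocyte and thymus markers summed to 0.01 TPM in replicate 2 and 5.91 TPM in replicate 1. In such bulk RNA, fewer cells of a type and less RNA per cell cannot be told apart. Of 8 adipose markers, which summed to 14.3 TPM in replicate 2 and 7.36 TPM in replicate 1, Cidea had 11.2 and 4.14 TPM, Prdm16 had 2.45 and 2.55 TPM, and Ucp1, Lep and Cfd had 0 counts in both libraries. The 8 liver markers summed to 27.5 TPM in replicate 2 and 24.7 TPM in replicate 1.

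The pathway was expressed nearly in full. Of the 39 genes, 37 reached 1 TPM in both replicates, where 24.2% of all genes and 47.1% of nuclear protein-coding genes did. The exceptions were Acsl6 and Acad10. A mean of 10 TPM was reached by 31 genes, 50 TPM by 20 genes and 100 TPM by 8 genes. Among the 10099 nuclear coding genes detected in both replicates, 10 of the 39 ranked in the first 500 and 21 in the first 1000. Together they made up 0.998% of nuclear coding TPM in replicate 2 and 0.743% in replicate 1, a mean of 0.870 ± 0.180% (SD, n = 2). When the genes were ordered by mean TPM, 31 of the 38 pairs of neighbours had overlapping ranges over the replicates, so the order holds between distant places and not between most neighbours.

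**Figure D1:**
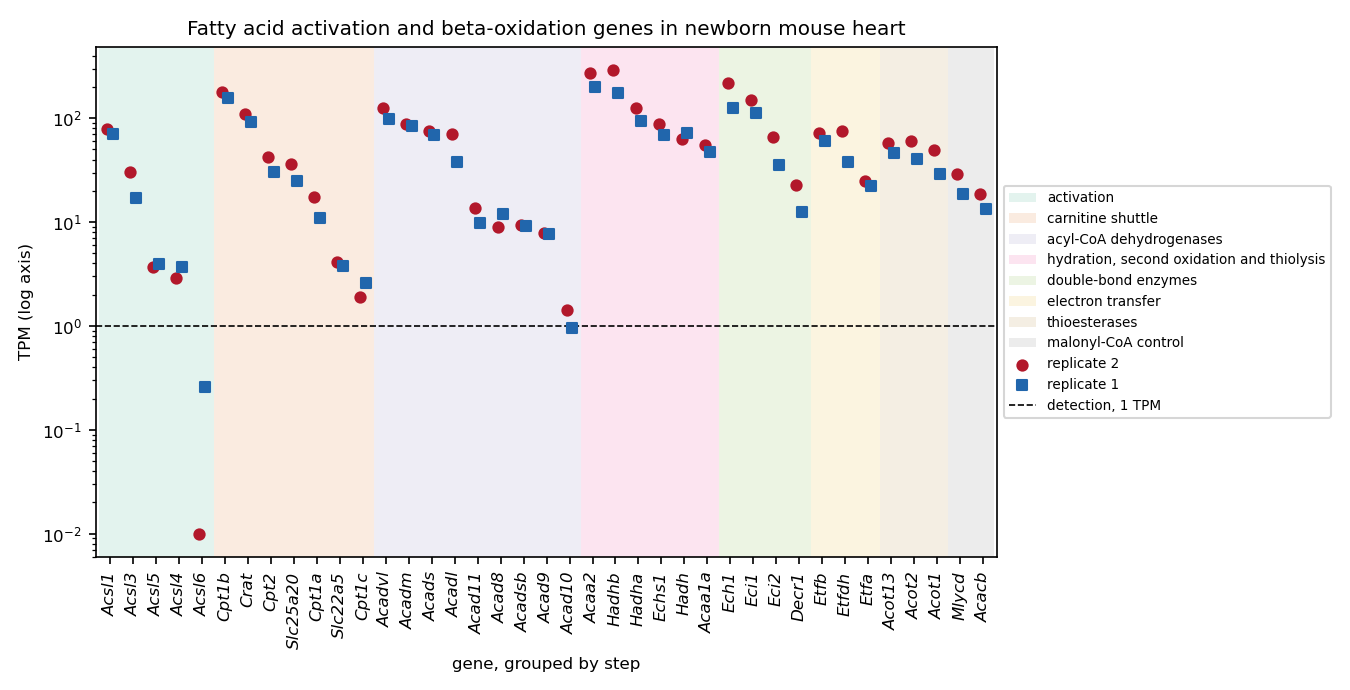
Each point is the TPM of a gene in replicate 2 (circles) or replicate 1 (squares) of newborn heart on a log axis, with genes grouped by step and the dashed line at 1 TPM. Acaa2 and Hadhb lie highest, Acsl6 lies below the line in both replicates, and Acad10 crosses it.

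The steps contributed unequally to the total. Hydration, hydroxyacyl oxidation and thiolysis, with 6 genes, held 33.9% of the pathway's TPM in replicate 2 and 33.5% in replicate 1. The 9 acyl-CoA dehydrogenases held 15.1% and 16.8%, the 4 enzymes that move or remove double bonds 17.3% and 14.6%, and the 7 genes of the carnitine shuttle 14.7% and 16.4%. These 3 steps were close to each other in both replicates. Electron transfer held 6.56% in replicate 2 and 6.17% in replicate 1, thioesterases 6.34% and 5.91%, and activation 4.37% and 4.87%. The smallest share belonged to the enzymes that set malonyl-CoA, at 1.79% in replicate 2 and 1.64% in replicate 1. These shares are per length. By counts not divided by length, means over the replicates were 23.1% for the carnitine shuttle, 8.93% for the double-bond enzymes, 8.32% for activation, and 4.25%, 4.23% and 4.20% for malonyl-CoA control, electron transfer and thioesterases.

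Among the synthetases of activation, Acsl1 was the highest in both replicates. Acsl1 (ENSMUSG00000018796.8, chr8:46471037-46536051, GRCm38), the major long-chain acyl-CoA synthetase of heart muscle, stood at 78.5 TPM in replicate 2 and 70.0 TPM in replicate 1. Acsl3, a synthetase of the endoplasmic reticulum and lipid droplets, followed at 30.7 and 17.2 TPM. Acsl5 had 3.70 and 3.95 TPM, and Acsl4, which prefers arachidonic acid, had 2.91 and 3.72 TPM. Acsl6, known mainly from brain, was listed at 0.01 TPM from 4 counts in replicate 2 and 0.26 TPM from 22 counts in replicate 1. The first and second genes did not overlap over the replicates, and neither did the second and the rest, whereas Acsl5 and Acsl4 differed little. On the log2 scale, Acsl1 exceeded Acsl5 by 4.37 in replicate 2 and 4.11 in replicate 1, and Acsl4 by 4.71 and 4.20.

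The carnitine shuttle was led by its muscle form. Cpt1b (ENSMUSG00000078937.4, chr15:89416405-89425863), the muscle carnitine palmitoyltransferase that commits acyl groups to the mitochondrion, had 178 TPM in replicate 2 and 156 TPM in replicate 1. Its liver counterpart Cpt1a had 17.3 and 11.0 TPM, and the neuronal form Cpt1c had 1.92 and 2.57 TPM. Cpt1b was thus 10.2-fold above Cpt1a in replicate 2 and 14.0-fold above it in replicate 1. Crat, which forms acetylcarnitine from acetyl-CoA, was the next highest of the step at 109.9 and 91.7 TPM. Cpt2, which returns acyl groups to coenzyme A inside the mitochondrion, had 42.5 and 30.2 TPM. Slc25a20, the carrier that exchanges acylcarnitine for carnitine across the inner membrane, had 36.1 and 24.9 TPM. Ranges of Cpt2 and Slc25a20 overlapped. Slc22a5, which brings carnitine into the cell, was low at 4.12 and 3.77 TPM.

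Each of the 4 straight-chain dehydrogenases, named by the length of acyl chain they prefer, was abundant. Acadvl, for very long chains, had 124 TPM in replicate 2 and 98.5 TPM in replicate 1, and Acadm, for medium chains, had 87.2 and 84.1 TPM. Acads, for short chains, had 76.0 and 69.4 TPM. Acadl, for long chains, had 70.7 and 37.6 TPM, the widest spread among the dehydrogenases. The related enzymes were all lower. Acad11 had 13.6 and 9.78 TPM, and Acad8 and Acadsb, which act on branched chains from amino acids, had 9.01 and 12 TPM and 9.38 and 9.07 TPM. Acad9, best known for its part in assembling respiratory complex I, had 7.85 and 7.72 TPM, and Acad10 had 1.41 and 0.96 TPM. Transcripts not annotated as protein-coding held 100% of the Acad10 TPM in replicate 2 and 85.4% in replicate 1. The 4 straight-chain genes lay above all 5 others in each replicate.

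Hydration, hydroxyacyl oxidation and thiolysis held the highest genes of the pathway. Acaa2 (ENSMUSG00000036880.9), the mitochondrial thiolase of the last reaction of the cycle, had 276 TPM in replicate 2 and 199.6 TPM in replicate 1. Hadhb (ENSMUSG00000059447.9, chr5:30155248-30184593), which encodes the thiolase subunit of the trifunctional protein, had 290.2 and 174 TPM. Acaa2 and Hadhb exchanged order between the replicates. Hadha (ENSMUSG00000025745.7, chr5:30118304-30155162), the subunit with the hydratase and dehydrogenase activities, had 126 and 94.3 TPM. Although the subunits join in 1 complex, Hadha lay below Hadhb by log2 ratios of -1.20 in replicate 2 and -0.89 in replicate 1. Echs1, the short-chain hydratase, had 87.7 and 68.3 TPM. Hadh, the short-chain hydroxyacyl-CoA dehydrogenase, had 62.8 and 71.5 TPM and was the only gene of the step lower in replicate 2 by TPM. Acaa1a, a thiolase of the peroxisome, had 54.8 and 46.9 TPM.

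Hadha and Hadhb lie head to head on opposite strands, and the stretch between their annotated starts is short enough to print whole, at chr5:30155163-30155247 in GRCm38.p6, plus strand. Capitals mark GGGCGG, the GC box, which was found on the printed strand at both ends.
Hadha and Hadhb gap: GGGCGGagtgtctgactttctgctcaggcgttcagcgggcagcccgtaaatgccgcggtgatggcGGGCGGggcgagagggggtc
These 85 bases lie upstream of both subunit genes, and their activity was not measured here.

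By step median, the enzymes for unsaturated chains differed most between the replicates. Ech1, the dienoyl-CoA isomerase, had 218 TPM in replicate 2 and 126 TPM in replicate 1. Eci1, an enoyl-CoA isomerase, had 151 and 112 TPM, and its relative Eci2 had 65.7 and 35.1 TPM. Decr1, the dienoyl-CoA reductase needed for polyunsaturated chains, was lower at 22.5 and 12.6 TPM. All 4 were higher in replicate 2, and none of their ranges reached down to Decr1. Ech1 exceeded Decr1 by log2 ratios of 3.27 and 3.31, nearly the same value in both replicates.

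Electron transfer was uneven among partners. Etfb had 72.7 TPM in replicate 2 and 60.1 TPM in replicate 1, and Etfa, which pairs with it in the flavoprotein, had 24.97 and 22.3 TPM. The log2 ratio of Etfa to Etfb was -1.54 in replicate 2 and -1.43 in replicate 1. Etfdh, which passes the electrons on to ubiquinone, had 76.0 and 38.2 TPM. By TPM, Etfdh had the largest difference between the replicates among the 38 genes at a mean of 1 TPM.

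Thioesterases release free fatty acids from coenzyme A. Acot2, the mitochondrial form, had 59.98 TPM in replicate 2 and 40.8 TPM in replicate 1, and Acot13, a form found at mitochondria, had 57.9 and 45.8 TPM. Acot1, the cytosolic form, had 49.9 and 28.9 TPM. The ranges of all 3 overlapped. Acot1 and Acot2 lie side by side on chromosome 12, and their coding sequences were 95.3% identical over 1236 aligned bases, with a longest identical run of 273. The split of reads between them is therefore uncertain. The coding stretch in which they differ most, bases 823 to 882 of Acot1 and 946 to 1005 of Acot2 (GENCODE M21 transcripts), is shown. Capitals mark the 13 bases that differ.
Acot1-201: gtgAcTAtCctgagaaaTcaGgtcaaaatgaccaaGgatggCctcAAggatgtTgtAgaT
Acot2-201: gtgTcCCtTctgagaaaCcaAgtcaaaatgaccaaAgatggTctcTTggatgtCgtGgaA

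Malonyl-CoA inhibits the CPT1 enzymes, and both genes that set its level at the mitochondrion were detected. Mlycd, which degrades it, had 28.9 TPM in replicate 2 and 18.8 TPM in replicate 1. Acacb, the acetyl-CoA carboxylase of the outer mitochondrial membrane, had 18.6 and 13.2 TPM. Acaca, the cytosolic carboxylase, had 3.12 and 6.45 TPM. Acacb exceeded Acaca by a log2 ratio of TPM of 2.53 in replicate 2 and 1.02 in replicate 1. By counts not divided by length the ratios were 2.42 and 1.58. The excess was thus seen in both replicates, and how far its size differed depends on the division by length.

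For 29 pairs of related genes, the ratio within each replicate was compared with the limit of 2.15, the 95th percentile of the absolute log2 differences between the replicates over all genes at a mean of 1 TPM. In both replicates, 8 pairs exceeded it. They were Acsl1 over Acsl4, Acsl5 and Acsl6, Cpt1b over Cpt1a and Cpt1c, Acadvl over Acad9, Acad11 over Acad10, and Ech1 over Decr1. No such count was made over other gene pairs, so it shows no trait of these families. The value for Acsl6, 9.48 and 7.61, depends on the pseudocount of 0.1 TPM. In 24 of the 29 pairs the ranges of the 2 genes did not overlap, so most pairs that missed the limit still kept their order. Cpt1a over Cpt1c, at 3.11 and 2.06, missed it in replicate 1 alone. With the 99th percentile as the limit, 4.85, 2 pairs exceeded it in both, and with the 95th percentile of genes at a mean of 10 TPM, 1.28, 14 did.

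**Figure D2:**
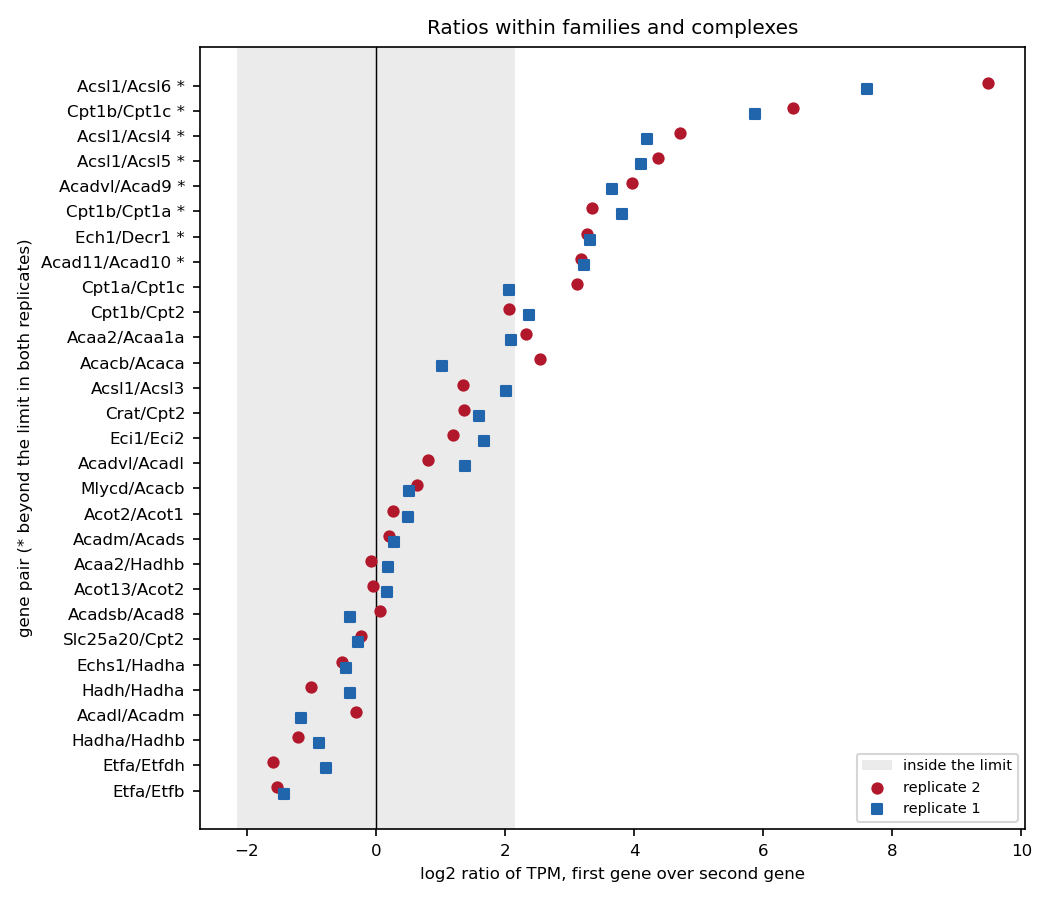
Points give the log2 ratio of TPM of the first over the second gene of 29 pairs in replicate 2 (circles) and replicate 1 (squares), and the grey band spans 2.15 on either side of 0. The 8 starred pairs lie beyond the band in both replicates, and Etfa/Etfb and Hadha/Hadhb lie left of 0 in both.

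The pathway as a whole stood higher in replicate 2. Of the 38 genes at a mean of 1 TPM, 33 were higher there on the log2 scale of TPM centred on the median gene, beside 50% of all 11594 genes at that mean. The median difference, replicate 2 minus replicate 1, was 0.37 (range -0.43 to 0.97), whereas over all genes it was 0 with a 5th to 95th percentile of -1.38 to 1.51. By counts scaled with TMM factors and not divided by length, 30 of the 38 were higher in replicate 2, beside 50.3% of all genes, with a median of 0.27. The genes of the pathway thus differed by small amounts, mostly in the same direction. Scaled to the spike-ins, the median was 0.17 while that of all genes was -0.20. With only the transcript of most counts in each gene, the median was 0.18. None of the 38 differed by 2-fold in TPM, where 19.0% of all genes did, 10.1% higher and 8.90% lower in replicate 2. That background holds many genes of low TPM. Among genes at a mean of 10 TPM, none of 31 in the pathway differed by 2-fold, beside 8.15% of all 4198. By counts, again none of the 38 did, beside 14.5% of all genes. At 1.5-fold, 10 genes were higher in replicate 2 by TPM, beside 19.0% of all genes, and none was lower. In either direction, 36.3% of all genes differed by that much in TPM. By counts, 7 genes were higher, a share near the 16.5% of all genes. The deposited intervals of TPM did not overlap between the replicates for 31 of the 38, beside 73.3% of all genes, which is near the background. Those intervals cover the estimate in 1 library and not the spread between isolates.

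Step by step, the median difference in TPM was 0.79 for the double-bond enzymes, 0.53 for the thioesterases, 0.53 for malonyl-CoA control, and 0.37 for hydration, hydroxyacyl oxidation and thiolysis. It was 0.25 for electron transfer, 0.24 for the carnitine shuttle, 0.11 for the dehydrogenases and 0.01 for activation. Single genes led the differences. Etfdh differed by 0.97, Acadl by 0.89, Eci2 by 0.88, Decr1 by 0.81, Acsl3 by 0.80, Ech1 and Acot1 by 0.77, and Hadhb by 0.71. For Decr1, Ech1, Acot1 and Hadhb the count difference was as large, at 0.84, 0.80, 0.79 and 0.72. For Acadl, Eci2 and Acsl3 the count difference was smaller, at 0.26, 0.48 and -0.00. Acad11 differed by 0.45 in TPM and -0.08 in counts, and Acaa1a by 0.20 and -0.04, so that their direction depends on the division by length, as does that of Acsl3. The 5 genes lower in replicate 2 by TPM were Acad8, Cpt1c, Acsl4, Hadh and Acsl5.

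**Figure D3:**
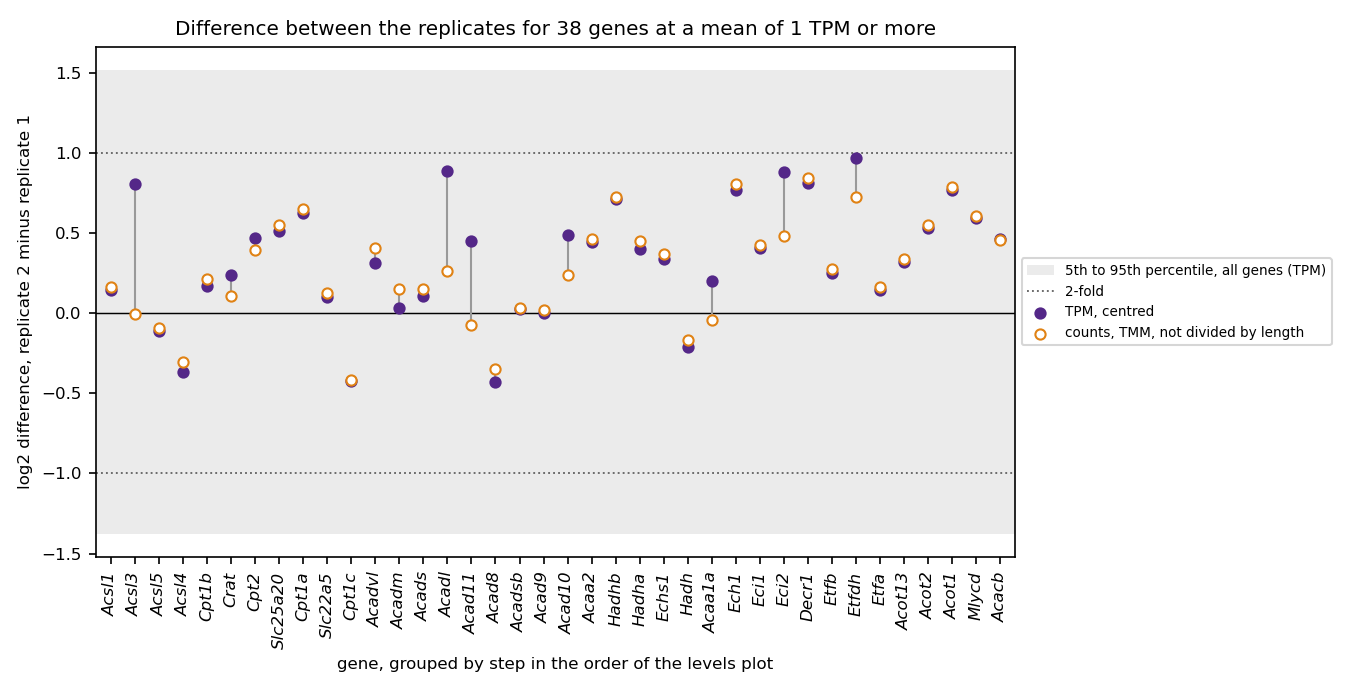
For the 38 genes at a mean of 1 TPM, filled points give the centred log2 difference in TPM and open points that in TMM-scaled counts, replicate 2 minus replicate 1, with the grey band at the 5th to 95th percentile of all genes. All points lie inside the dotted 2-fold lines, 33 filled points lie above 0, and the gap between point types is widest for Acsl3, Acadl and Acad11.

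TPM and counts parted most in the 4 genes at a mean of 1 TPM whose effective length changed most. Effective length is averaged over a gene's transcripts by their estimated share and is below the full length. For Acaa2, with 1 transcript of 1515 nucleotides, it was 1227 in replicate 2. Effective length differed by over 25% between the replicates in 4 of the 38 genes, beside 22.0% of all genes. It was 1590 nucleotides in replicate 2 and 2830.3 in replicate 1 for Acsl3, and 1040 and 1627 for Acadl. For Acad11 it was 2114 and 3085, and for Eci2 781 and 1045. In all 4 the shorter value was in replicate 2. Smaller gaps stood in Acad10, at 0.49 in TPM and 0.24 in counts, in Etfdh and in Acaa1a, whose effective length changed by less than 25%. A shorter effective length raises TPM at equal counts by construction.

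In Acadl a single short transcript differed between the replicates. Acadl-201, the coding transcript of 1916 nucleotides, stood at 37.9 TPM in replicate 2 and 37.6 TPM in replicate 1. Acadl-202, of 649 nucleotides and typed as a processed transcript, stood at 32.8 TPM from 1311 counts in replicate 2 and at 0 in replicate 1. Almost all of the gene's difference in TPM lay in the short form. Of its bases 86.3% lie in Acadl-201, so that reads over them are divided by estimate.

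Etfdh showed the same kind of split with a larger remainder. Etfdh-201, the coding transcript of 2377 nucleotides, had 53.2 TPM in replicate 2 and 35.1 TPM in replicate 1. Etfdh-204, of 945 nucleotides and typed as a retained intron, had 20.3 TPM in replicate 2 and 0.70 TPM in replicate 1, from 1474 and 48.7 counts. The coding transcript alone differed by 0.59 on the centred log2 scale, against 0.97 for the gene. The stretch of Etfdh-204 that Etfdh-201 lacks is intronic, of 132 bases at chr3:79615792-79615923 (GRCm38, minus strand).
Etfdh-204 retained stretch: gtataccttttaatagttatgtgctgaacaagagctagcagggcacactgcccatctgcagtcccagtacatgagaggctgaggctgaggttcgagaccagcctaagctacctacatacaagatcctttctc

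Of the 39 genes, 9 had a single annotated transcript and 30 had several, up to 15. In the 26 that had at least 2 and a mean of 5 TPM, 23 kept the same leading transcript in both replicates, beside 71.8% of all such genes. Leading here means the highest percent of the gene's TPM. In 13 the leading transcript held 80% or more in both, beside 30.6%. Cpt1b-201, for instance, held 99.8% of the gene's TPM in replicate 2 and 97.8% in replicate 1. Hadha was divided, with Hadha-201, typed as a processed transcript in the later annotation used for names, at 55.0% and 65.1%, and the coding Hadha-205 at 41.1% and 33.5%. Acsl1 divided between coding forms, with Acsl1-203 at 50.4% and 37.0% and Acsl1-201 at 47.8% and 60.5%. Transcripts not typed as protein-coding held a larger share of TPM in replicate 2 in 15 genes, a smaller one in 10 and an equal one in 14. The same count was not made over all genes, so it shows no trait of the pathway. Among the 15 were Acsl3, at 25.7% in replicate 2 and 0% in replicate 1, Eci2, at 28.7% and 1.88%, and Acad11, at 22.8% and 0%. Acad8, at 41.6% and 44.9%, showed no such split.

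**Figure D4:**
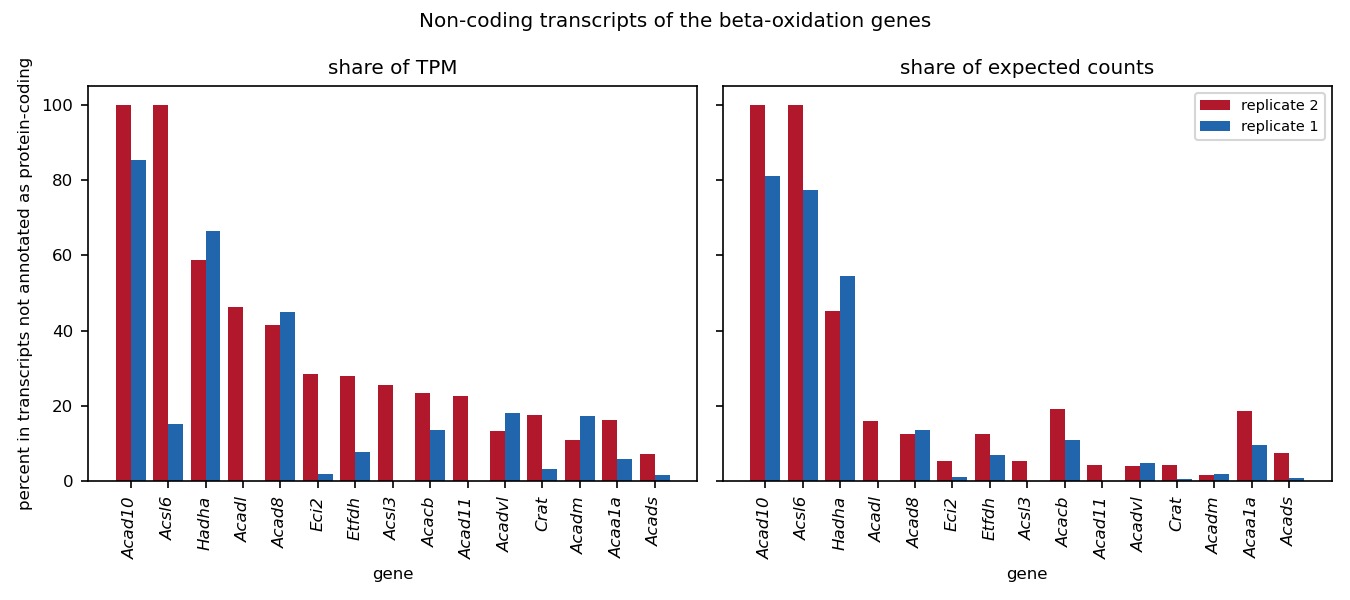
Bars give the percent of a gene's TPM (left) and of its expected counts (right) in transcripts not annotated as protein-coding, for replicate 2 and replicate 1. Acadl stands at 46.4% of TPM in replicate 2 with no bar in replicate 1, and at 16.1% of counts, while Hadha is above 40% in every bar. Acad10 stands at 100% of TPM in replicate 2 and 85.4% in replicate 1.

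Reads shared with near-identical genes limit a few values. Counts were whole numbers in 32 of the 39 genes and fractional in 7, where reads were split by estimate. Stretches of the read length that also occur in another gene of the tables made up 53.0% of Hadhb-201, all from the processed pseudogene Gm13910, which had 6.38 TPM in replicate 2 and 3.53 TPM in replicate 1. The share was 21.7% in Acot1-201 and 17.0% in Acot2-201, mostly from each other. All these shares are of GENCODE M21 sequences. Acot1-201 has 2272 nucleotides there and 1559 in the deposited quantification, so its share in the quantified form can differ. The share was 21.4% in Acaa1a-201, shared with Acaa1b, which had 0 counts in replicate 2 and 10.2 in replicate 1. Slc22a5, Acad10, Acad11 and Eci2 shared 13.6%, 7.80%, 1.97% and 1.58%, and in the other 31 genes the 1 transcript searched shared none. Cpt1b was among these, yet its counts were fractional, at 51325.37 in replicate 2 and 42106.52 in replicate 1. The levels of Hadhb, Acot1, Acot2 and Acaa1a are therefore less certain than those of Acaa2 or Acadm, which had whole counts and shared no such stretch.

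Promoter letters were read from RefSeq windows of 250 bases before to 50 after the gene start on GRCm38.p6, present for 33 of the 39 genes. Motifs were searched on both strands. Each gene was counted once. The letters AGGTCA, a motif read by nuclear receptors such as the PPAR and ERR families, occurred in 7 of the 33 genes, or 21.2%. Of all 27025 genes with a window, 18.1% held them. The longer AAGGTCA, which contains AGGTCA, occurred in 9.09% and 5.38%. The element called DR1, a direct repeat of AGGTCA with a free base between the copies, occurred in none of the 33 and in 0.0481% of all. GGGCGG occurred in 75.8% and 38.2%, CCAAT in 54.5% and 41.1%, and TATAAA in 3.03% and 15.7%. The windows were richer in GC, with a median of 60.3% beside 52.7% over all. The 60 bases around AGGTCA, or TGACCT where it lies on the other strand, are shown for 3 enzymes of the pathway, with the motif in capitals and each read 5′ to 3′ on the gene's strand.
Acadm, chr3:153944834-153944893, minus strand: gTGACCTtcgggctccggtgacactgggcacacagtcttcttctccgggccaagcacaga
Acadvl, chr11:70015483-70015542, minus strand: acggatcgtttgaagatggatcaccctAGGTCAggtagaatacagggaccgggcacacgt
Cpt1a, chr19:3323180-3323239, plus strand: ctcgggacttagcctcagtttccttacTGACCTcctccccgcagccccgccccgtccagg
Cpt1a begins at chr19:3322334 in GENCODE M21, ahead of its RefSeq start. Its printed stretch therefore lies inside the M21 gene, outside annotated exons. A match describes the letters only. No factor binding was measured in these data.

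Genes of fatty acid supply also stood higher in replicate 2. All 10 genes of uptake and binding were detected, 8 were higher in replicate 2, and the median difference was 0.27. Fabp3, which carries fatty acids through the cytosol of muscle cells, had 1034 TPM in replicate 2 and 538 TPM in replicate 1, above every enzyme of the pathway. Slc27a1, a fatty acid transporter, was the sole 2-fold gene, at 31.8 and 12.6 TPM. Cd36, the main fatty acid importer, had 96.7 and 73.8 TPM, and Lpl, which frees fatty acids from lipoproteins, had 116 and 104 TPM.

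The neighbouring routes of energy metabolism had medians near 0. The 18 genes of the tricarboxylic acid cycle, which receives the acetyl-CoA, summed to 3541 TPM in replicate 2 and 3355 TPM in replicate 1, with 12 higher in replicate 2 and a median difference of 0.03. The 18 glycolysis genes summed to 5777 and 6136 TPM, with 4 higher in replicate 2 and a median of -0.10. Of 16 genes of peroxisomal beta-oxidation, 11 were detected, and the 13 at a mean of 1 TPM had a median of 0.03, with 8 higher in replicate 2. Cardiomyocyte markers had a median of 0.04, and their difference from the pathway was not tested. Fibroblast markers, 6 of 7 higher in replicate 2, summed to 624 TPM there and 499 TPM in replicate 1, with a median of 0.31. Smooth muscle and urothelial markers had medians of 2.55 and 5.81, and the part of such cells in the difference of the 39 genes was not tested.

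**Figure D5:**
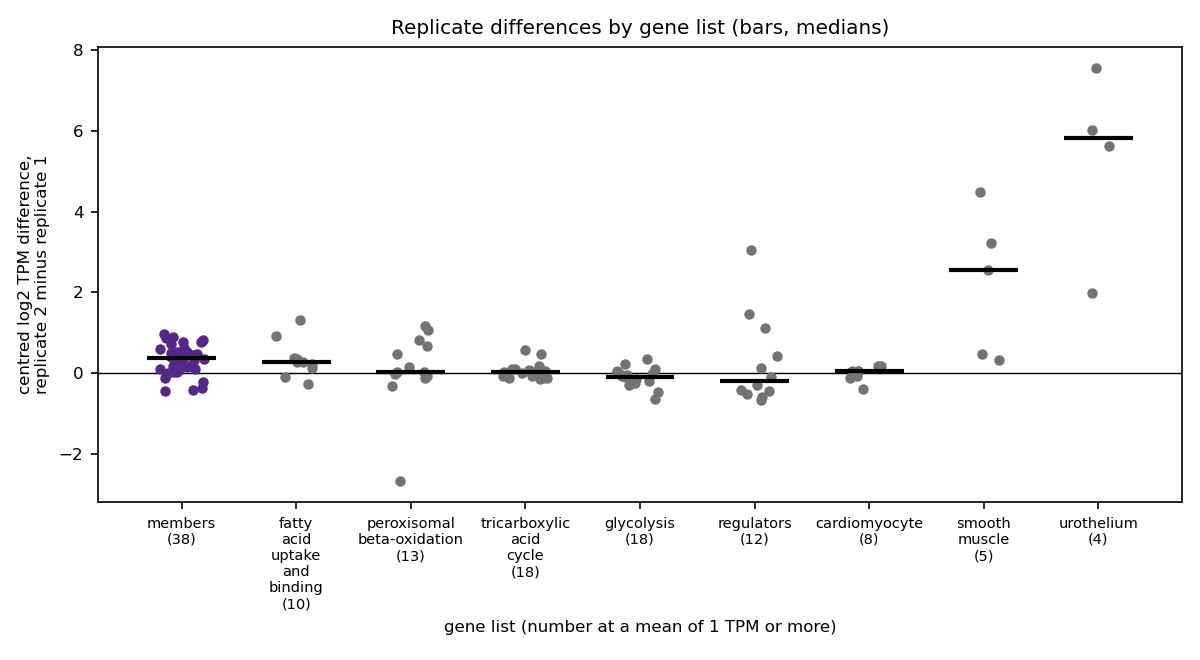
Each point is the centred log2 difference in TPM, replicate 2 minus replicate 1, of a gene at a mean of 1 TPM or more, by list, with bars at the medians. The 38 genes of the pathway centre at 0.37, the tricarboxylic acid cycle and glycolysis at 0.03 and -0.10, and smooth muscle and urothelium lie far above.

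Transcription factors and coactivators that act on the pathway had a median difference below that of all genes. The 12 listed genes, of which 11 were detected, had a median of -0.19 by TPM, with 5 higher in replicate 2, and of -0.03 by counts. Esrra, an estrogen-related receptor that acts on mitochondrial genes, was the highest at 57.9 TPM in replicate 2 and 60.5 TPM in replicate 1. Its coactivator Ppargc1a had 15.0 and 22.3 TPM. Ppara, a fatty acid sensor, had 3.08 and 4.83 TPM. Ppard had 4.88 and 1.69 TPM and Pparg 2.27 and 0.98 TPM, both 2-fold higher in replicate 2 by TPM. By counts their log2 differences were 0.94 for Ppard, under 2-fold, and 1.18 for Pparg. Ppargc1b had 29.8 TPM in replicate 2 and 3.43 TPM in replicate 1, yet its counts were 1334 and 1206, so its TPM difference was not matched by counts.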

How the data were processed

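Hearts of 1 group were profiled by total RNA sequencing with ERCC spike-ins. Per the deposited notes, the authors aligned reads to mm10 with the GENCODE M4 annotation. Which aligner and counter were used is not given in the sources used. Expected counts, deposited by the authors, are estimated fragments per gene or transcript without normalization. TPM was deposited per effective length and scaled to the sum of all entries, spike-ins included. FPKM, deposited likewise, served as an alternative. Percent values deposited per transcript are its share of the gene's TPM. The interval bounds the authors deposited were treated as a score, since their level is not stated. The deposited lengths are in nucleotides.

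Names, coordinates and transcript types came from GENCODE M21, matched by identifier for 42462 of 43346 genes. Genes were detected at 1 TPM in both replicates. Replicate differences were log2 of TPM plus 0.1, replicate 2 minus replicate 1, centred on the median gene among those averaging 1 TPM or more. TMM factors came from edgeR 4.0.16 (R 4.3.3) on rounded expected counts. The 2-fold calls were tested on simulated data that held counting noise alone. Those data had a fixed effective length for each gene and no spread between isolates, so errors from either are not covered. Python 3.11.15 was used with pandas 2.3.3, numpy 2.4.6 and matplotlib 3.10.9. With 1 library on each side no p-value was computed, and the labels describe independent isolates, so the spread is between isolates.

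The genes and lists were chosen with earlier results of these data known. Every gene of the pathway could be named; in the other lists, the 4 genes of highest mean TPM and any gene 2-fold apart. Ppara, Krt5, Ucp1, Lep and Cfd are exceptions, picked once their values were known. Protein identity was not analysed here.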

Additional observations from a re-analysis of the deposited data

How the results depend on the processing

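Detection of the 39 genes gave 33 to 38 genes over every threshold, unit and estimate tried, against 37, and 37 to 38 from single replicates. The share of the pathway was 0.743% to 0.998% of nuclear coding TPM in single replicates, and 0.230% of all TPM. Differences of single genes changed sign in 3 genes by counts, with TMM or with median-ratio factors (Acsl3, Acad11 and Acaa1a, between -0.08 and -0.00 with TMM factors), and in 8 when scaled to the ERCC spike-ins, between -0.19 and -0.03. The count of 2-fold differences was 0 and became 1 with no filter on low values, which admits Acsl6, and 10 at 1.5-fold. The median difference of 0.37 was 0.17 when scaled to the ERCC spike-ins, where the median of all genes was -0.20 and 25 of 38 genes were higher in replicate 2. Of 29 pairs, 8 were called, 2 with the 99th percentile as the limit, 14 with a limit set on genes averaging 10 TPM and 14 by counts not divided by length, and 9 to 11 in single replicates. Major transcripts numbered 14 to 18 in single replicates, against 13.

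Further alternatives were chosen after seeing the data. In 1 of them each gene was represented by its transcript of most counts, which for Hadha is Hadha-205 and not Hadha-201. With that transcript alone, the median difference was 0.18, and 27 of 38 genes were higher in replicate 2. In that setting 1 gene was 2-fold apart, Acsl4, and 6 changed sign, among them Eci2 at -0.32 and Acsl1 at -0.18. Without the 4 genes of changed effective length the median was 0.31, and 29 of 34 genes were higher. The cause of these shifts was not tested.

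No paired analysis was possible because the series holds 1 group. With 2 libraries, the spread rests on 1 difference, and counts limit Acsl6 and Acad10 most.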

Other observations

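Listed genes that make or use malonyl-CoA, and subunits of the AMP-activated kinase that restrains its making, were mostly detected, 9 of 10. Their median log2 difference in TPM was -0.12 between replicate 2 and replicate 1, with 4 genes higher in replicate 2. Prkag1, a regulatory subunit of the kinase, had 30.6 TPM in replicate 2 and 31.8 TPM in replicate 1, and Prkaa2, a catalytic subunit, had 17.0 and 21.8 TPM. Fasn, the fatty acid synthase, had 19.2 and 17.99 TPM. Prkag3, another regulatory subunit, was 2-fold higher in replicate 2 at 2.53 and 0.62 TPM, from 371 and 166 counts.

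Among other acyl-CoA synthetases, 5 of 12 were detected and 5 had 0 counts in both libraries, with a median of -0.24 over the 5 at a mean of 1 TPM. Acss1, a mitochondrial acetyl-CoA synthetase, had 15.4 TPM in replicate 2 and 11.2 TPM in replicate 1. Other thioesterases were low, with 3 of 10 detected and a median of 0.74 over 4 genes. Acot7 was 2-fold higher in replicate 2 at 10.5 and 4.67 TPM, and Acot4 had 4.80 and 0.24 TPM, from 267 and 51 counts. In the flavin and electron transfer list, 11 of 12 genes were detected, and the median was 0.08 by TPM and -0.20 by counts, so its direction depends on the scaling. Mcee, an epimerase of propionate breakdown, had 3.32 TPM in replicate 2 and 10.5 TPM in replicate 1.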
